A study of Aspergillus nidulans with 24 samples.

Results

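The time course of the parental strain A773 of Aspergillus nidulans, a filamentous fungus, was compared between 8 h and 2 h on maltose. The comparison took every gene with an FPKM (fragments per kilobase of gene scaled to library size) of at least 1 in at least 3 of the 24 libraries of the series, which left 9201 of 10631 genes. It rested on 6 of the 24 libraries, 3 at each time, labelled as biological triplicates of mycelium. A773 carries the alleles pyrG89, wA3 and pyroA4, and the labels also call it wild type. Its mycelium was grown with 1% glucose and then kept in minimal medium with 2% maltose and 250 mM HEPES, at 37 °C. Pyridoxine, uracil and uridine were added as needed, and the labels do not say which strain received which. The other 18 libraries came from 3 recombinant strains, each making 1 foreign enzyme, at the same 2 times: an alpha-arabinofuranosidase in AbfA, a beta-glucosidase in BglC and a thermophilic mannanase in 1542. No sample was taken before the move to maltose or in another medium, so the time on maltose and the age of the culture cannot be told apart.

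Maltose is a disaccharide of glucose that A. nidulans splits with alpha-glucosidases before use. After a change of medium the fungus adjusts the uptake and use of carbon and nitrogen through dedicated regulators, among them CreA for carbon catabolite repression, and AreA and NirA for nitrogen. Its hyphae rebuild their wall of glucan and chitin as they grow, and can form conidiophores, the stalks that bear asexual spores, under the central regulator BrlA.

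The parental libraries held between 13988627 and 24286301 reads, recovered as whole numbers from the steps of the FPKM values. Sampling time separated them on the first principal component, which held 79.8% of their variance. Across genes, Pearson's r on the log2 scale was 0.983 to 0.991 between libraries of 1 time and 0.910 to 0.933 between times. Replicate 2 at 8 h, the deepest of the 6, stood apart in a small set of genes: 27 of 7614 genes lay over 5-fold above the median of the 3 libraries at 8 h, against 0 to 3 genes in each of the other libraries. Several results are given with and without it.

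A large share of the genes differed between the times. By limma's moderated test on log2(FPKM + 1) with Benjamini-Hochberg adjustment, 4440 of 9201 genes (48.3%) had an adjusted p under 0.05, 2890 of them higher at 8 h (31.4% of all genes tested) and 1550 lower (16.8%). Without replicate 2 at 8 h the number was 4002. A change of at least 2-fold was called in 1343 genes (14.6%), 825 higher (8.97%) and 518 lower (5.63%). Of the 770 tested genes that carried a symbol in the reference table, 390 were called (50.6%). The libraries of the 2 times did not overlap in 5282 genes (57.4%). Genes named below for the size of their change were picked only among called genes without overlap. Its absence in those genes is therefore no further result. The median gene was 0.13 higher at 8 h on the log2 scale. With the libraries rescaled by median-of-ratios factors the median of all genes moved to 0.0001 and the calls divided into 2266 higher and 2202 lower, so a small change is best read against that shift, and the excess of higher over lower calls depended on the scaling. Below, a level is mean FPKM ± SD and a change is log2 ± SE, 8 h minus 2 h, with n = 3 libraries at each time; adjusted p-values are from the same limma test.

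**Figure D1:**
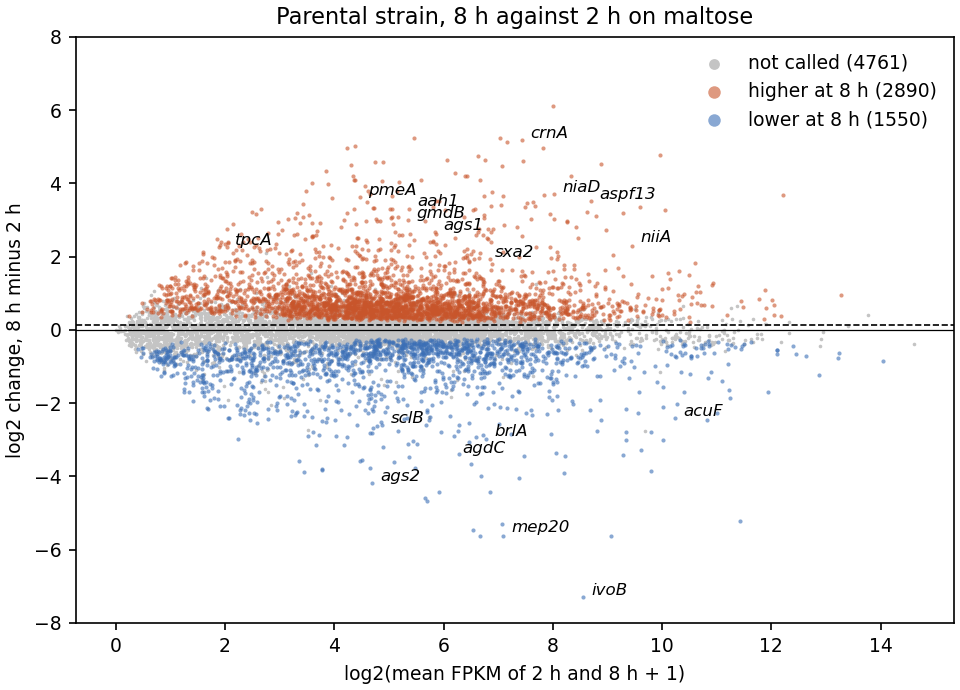
Log2 change, 8 h minus 2 h, of each of the 9201 genes tested (points) against its mean level as log2(FPKM + 1), in the parental strain. Colours mark the 2890 genes called higher and the 1550 called lower, the dashed line is the median of all genes (0.13), and genes marked by symbol reach from 5.17 (crnA) to -7.30 (ivoB).

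The 3 genes that take up and reduce nitrate rose together. They lie close together in the gene order of the reference table. The nitrate transporter gene crnA was at 5.91, 4.39 and 20.2 FPKM in the 2 h libraries and at 349, 307 and 343 FPKM at 8 h, a change of 5.17 ± 0.89 (adjusted p = 9.2e-05). The nitrate reductase gene niaD was at 34.2, 25.3 and 54.3 FPKM and then at 484, 469 and 493 FPKM, a change of 3.70 ± 0.56 (adjusted p = 2.3e-05). The nitrite reductase gene niiA was at 309, 191 and 222 FPKM and then at 1176, 1137 and 1160 FPKM, a change of 2.29 ± 0.30 (adjusted p = 5.4e-06). In all 3 genes every 8 h library lay above every 2 h library, and the 8 h libraries were close to each other while those at 2 h spread more. Their regulators moved the other way: nirA, the activator specific to nitrate, fell from 34.9 ± 1.19 to 27.1 ± 1.17 FPKM (change -0.36 ± 0.10), and areA, the general nitrogen activator, fell by 0.50 ± 0.18. The areA call was lost without replicate 3 of either time. The glutamine synthetase gene glnA was not called, at 5177 ± 88.9 and 4101 ± 359 FPKM, and it was called lower after scaling. Of the 6 listed nitrogen genes with their symbol in the reference table, 3 rose and 2 fell, against 31.4% and 16.8% of all genes. Another 6 listed genes did not carry the listed symbol there and were left out.

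Of 9 marker genes of conidiophores and spores 3 fell, against 16.8% of all genes. Among them was the largest fall of any gene that the naming rule picked. ivoB, the phenol oxidase of the brown conidiophore pigment, was at 673, 777 and 779 FPKM at 2 h and at 2.87, 5.56 and 3.09 FPKM at 8 h, 193-fold lower (change -7.30 ± 0.42, adjusted p = 2.4e-10). Its partner ivoA fell by 1.42 ± 0.39 from a low level, 2.97 ± 2.28 FPKM. brlA was at 146, 154 and 283 FPKM and then at 23.8, 19.1 and 26.1 FPKM, a change of -2.97 ± 0.44 (adjusted p = 2.0e-05). The times did not overlap in these 3 genes, which the naming by size required of ivoB and brlA.

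The rest of the 9 conidiophore and spore markers were not called. The rodlet hydrophobin gene rodA was at 1044, 487 and 2896 FPKM at 2 h and at 182, 132 and 190 FPKM at 8 h (change -2.77 ± 1.15, adjusted p = 0.053), so its times did not overlap but its 2 h libraries differed widely. The spore hydrophobin gene dewA (-1.12 ± 1.23), the spore laccase gene yA (-0.80 ± 0.34), wetA (-0.51 ± 0.32), abaA (-0.50 ± 0.22) and vosA (-0.17 ± 0.16) had negative values that did not pass the test. Of the 9 markers 3 fell, with a median of -1.12 against 0.13 over all genes, and 6 fell after scaling, with the replicate block and in a fit of the 6 parental libraries alone, and 5 without replicate 2 at 2 h. The summed level of the 9 was 2038, 1509 and 4158 FPKM at 2 h and 288, 251 and 284 FPKM at 8 h, and no marker was at 0 in any library. Without rodA the sums were 994, 1022 and 1262 FPKM against 106, 120 and 93.9 FPKM. Most of these sums at 2 h was ivoB (673, 777 and 779 FPKM) and brlA (146, 154 and 283 FPKM). The next highest at 2 h, dewA, overlapped between the times (117, 44.0 and 141 FPKM against 39.0, 57.5 and 30.1 FPKM). The summed level thus moved with time mainly through rodA, ivoB and brlA. The part of the markers in the other changes was not tested. In bulk RNA, fewer cells of a type and less RNA per cell cannot be told apart.

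Of 19 regulators of conidiation, 6 rose and 5 fell, against 31.4% and 16.8% of all genes. The number that fell was 9 after scaling and 3 without replicate 2 or replicate 3 at 2 h. Besides brlA, the gene laeA, a regulator of secondary metabolism and development, fell from 76.7 ± 5.78 to 39.5 ± 4.95 FPKM (change -0.94 ± 0.14). medA, a developmental modifier, fell by 0.98 ± 0.33, a call that was lost without replicate 2 or 3 at 2 h or replicate 2 at 8 h. The velvet genes veA (0.49 ± 0.15) and velB (0.53 ± 0.12), the sexual regulator nsdD (0.58 ± 0.18) and flbD (0.89 ± 0.22), an upstream activator of conidiation, rose, and were named after their values were seen. sclB, a zinc cluster regulator, fell from 41.3, 47.2 and 60.2 FPKM to 6.76, 8.11 and 6.83 FPKM (change -2.61 ± 0.19, adjusted p = 3.5e-09). tmpL, known as a membrane flavoprotein of asexual development, fell by 1.80 ± 0.39 and was at most 4.85 FPKM in any library.

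Of 4 genes of acetate use and gluconeogenesis with their symbol in the reference table, 3 fell, against 16.8% of all genes. These pathways make sugar from other carbon sources. Another 6 listed genes did not carry the listed symbol there and were left out. acuF, phosphoenolpyruvate carboxykinase of gluconeogenesis, was at 2115, 2324 and 1645 FPKM at 2 h and at 381, 411 and 347 FPKM at 8 h, a change of -2.40 ± 0.20 (adjusted p = 1.7e-08) with no overlap. facB, the activator of acetate use, fell from 249 ± 23.7 to 130 ± 11.6 FPKM (-0.93 ± 0.15), and fbp1, fructose-bisphosphatase, from 454 ± 45.9 to 247 ± 9.33 FPKM (-0.87 ± 0.11). The fourth gene, acuM, was not called (0.13 ± 0.11). The alpha-glucosidase gene agdC fell from 119, 127 and 138 FPKM to 17.2, 15.9 and 15.9 FPKM, 7.85-fold lower (-2.90 ± 0.20, adjusted p = 1.9e-09), and was the one gene of starch and maltose use that carried a symbol.

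A few more genes of carbon use were named after their values were seen. The repressor gene creA was at 900, 984 and 982 FPKM and then at 571, 459 and 409 FPKM (-1.01 ± 0.13, adjusted p = 2.9e-06), all 3 lower at 8 h. Of 2 glycolytic genes that carried their symbol, gpdA was not called (-0.08 ± 0.21). The other, pgkA, was called with overlapping libraries (-0.51 ± 0.20), a call lost in 6 alternatives. By the naming rule, osm1, named for a fumarate reductase of Saccharomyces cerevisiae, fell from 1056 ± 164 to 237 ± 46.2 FPKM (-2.16 ± 0.28) and fdh, formate dehydrogenase, from 534 ± 134 to 130 ± 29.4 FPKM (-2.03 ± 0.30).

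The 2 alpha-glucan synthase genes moved in opposite directions. ags2 was at 35.9, 53.9 and 54.5 FPKM at 2 h and at 1.76, 1.57 and 1.70 FPKM at 8 h, 28.7-fold lower (-4.17 ± 0.21, adjusted p = 9.5e-11). ags1 was at 17.3, 17.7 and 9.97 FPKM and then at 87.4, 97.8 and 107 FPKM, 6.49-fold higher (2.66 ± 0.30, adjusted p = 8.8e-07). At 2 h ags2 was above ags1 in every library and at 8 h below it in every library, on the FPKM scale, which is per length.

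**Figure D2:**
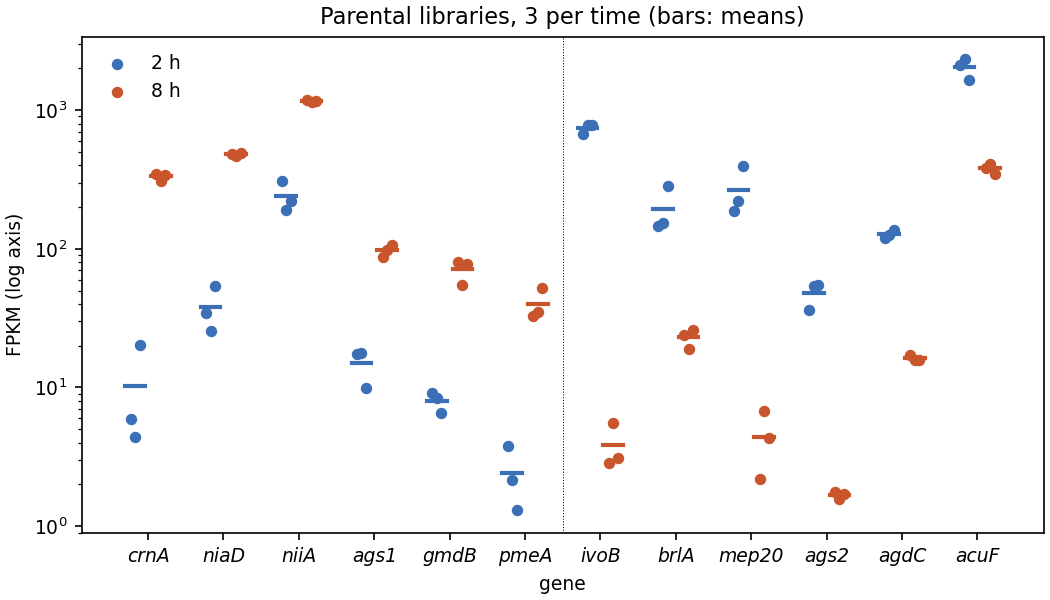
FPKM on a log axis of 12 genes in the 6 parental libraries (points, 3 per time; bars are means at 2 h and 8 h). The 6 genes left of the dotted line were higher at 8 h and the 6 on the right lower. In each of the 12 the libraries of the 2 times do not overlap, which was a condition for genes named by size.

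Other wall genes changed less. Of 11 genes of wall glucan synthesis and remodelling 6 rose and 3 fell, against 31.4% and 16.8% of all genes. Their median was 0.50. The beta-glucanosyltransferase gene gel1 rose from 914 ± 77.2 to 1731 ± 40.3 FPKM (0.92 ± 0.12) while gel2 fell from 220.0 ± 11.3 to 148 ± 12.9 FPKM (-0.57 ± 0.11), and the glucanase gene eng2 rose by 1.16 ± 0.23. Of 8 chitin synthase genes, chsA (-0.97 ± 0.25), chsG (-0.75 ± 0.15) and chsD (-0.71 ± 0.20) fell, while the call of chsB as higher (0.29 ± 0.12) was lost under scaling and 9 other alternatives. agd3, named for the Aspergillus fumigatus deacetylase of the wall polymer galactosaminogalactan, rose from 48.2 ± 15.0 to 222 ± 87.3 FPKM (2.13 ± 0.33). Its neighbour gtb3, named after its values were seen, rose from 19.4 ± 4.70 to 62.9 ± 11.8 FPKM (1.65 ± 0.22).

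Secreted and degradative enzymes held some of the largest changes. Of 6 genes of hydrolases and proteases that fungi use in autolysis, 3 rose and 1 fell, against 31.4% and 16.8% of all genes. mep20, a metalloprotease gene, was at 187, 221 and 393 FPKM at 2 h and at 2.20, 6.73 and 4.34 FPKM at 8 h, 60.3-fold lower (-5.64 ± 0.55, adjusted p = 1.4e-07). The amidase gene gmdB was at 9.11, 8.39 and 6.56 FPKM and then at 80.7, 55.0 and 78.1 FPKM (2.99 ± 0.23, adjusted p = 7.3e-09). Both genes were without overlap between the times, a condition for genes named by size. sxa2, named for a carboxypeptidase of Schizosaccharomyces pombe, rose by 2.51 ± 0.37, and the dipeptidyl peptidase gene dppV by 1.99 ± 0.35. Of 12 genes for enzymes of plant polysaccharides and their regulator 9 were tested and 5 rose, against 31.4% of all genes. They were 4 enzyme genes and the regulator gene xlnR. After scaling 4 rose and 2 fell, and 3 rose without replicate 2 at 8 h or with only genes of at least 5 FPKM. The pectin methylesterase gene pmeA rose from 3.80, 2.17 and 1.30 FPKM to 32.8, 34.8 and 52.4 FPKM (3.62 ± 0.29, adjusted p = 1.3e-08). The cellobiohydrolase gene cbhB (1.03 ± 0.24), the rhamnogalacturonase gene rhgB (0.70 ± 0.16) and the xylosidase gene xlnD (0.51 ± 0.15) rose at low levels, all under 13 FPKM in every library. The call of their regulator gene xlnR (0.29 ± 0.11) was lost in 7 alternatives, scaling among them, and those of xlnR and xlnD were both lost without replicate 2 at 8 h. Of 6 genes with the symbols of A. fumigatus allergens 3 rose and 2 fell, against 31.4% and 16.8% of all genes. Only 1 fell when replicate 1 or 2 at 2 h or replicate 1 at 8 h was left out, and with the replicate block. Of these genes aspf13 went from 65.2 ± 8.08 to 764 ± 178 FPKM (3.51 ± 0.39), aspf34 rose by 1.71 ± 0.21 and aspf4 by 1.38 ± 0.14.

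Proteasome genes rose almost without exception. The proteasome is the protease complex that degrades tagged proteins, with a core of Pre and Pup subunits and a cap that holds Rpt and Rpn subunits. Of 15 genes, 14 rose, against 31.4% of all genes. The rises lay between 0.46 ± 0.10 (rpt3) and 1.07 ± 0.12 (rpn8), and the median was 0.68. rpn8 was at 78.8, 81.5 and 93.4 FPKM at 2 h and at 189, 165 and 182 FPKM at 8 h. pre2 was at 161, 156 and 156 FPKM and then at 307, 271 and 299 FPKM. The times did not overlap in either gene. rpt4 was not called (0.16 ± 0.13); it and rpt3 were named after their values were seen. The count was 14 after scaling and 13 or 14 when any library was left out.

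Genes of ribosome assembly were called only lower. Of 23 genes, 14 fell, against 16.8% of all genes, with a median of -0.55, and 20 fell after scaling. mrd1, needed to process ribosomal RNA, was at 55.7, 70.6 and 61.6 FPKM at 2 h and at 23.5, 22.0 and 30.9 FPKM at 8 h (-1.27 ± 0.16, adjusted p = 2.8e-06). lcp5 (-0.89 ± 0.19), the helicase gene spb4 (-0.84 ± 0.16) and spb1 (-0.82 ± 0.14) followed. The count ran from 11 to 20 when single libraries were left out, the highest without replicate 3 at 8 h. Of 13 genes of ribosomal proteins and translation factors 5 were called lower, from -0.47 (rps0) to -0.34 (rps23), and 9 after scaling, but none was called lower without replicate 2 or 3 at 2 h, or without replicate 1 or 2 at 8 h. The list also held cpcA, the transcription factor of cross-pathway control, which was named after its values were seen. It was called higher (0.29 ± 0.11), a call lost in 9 alternatives, scaling among them.

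Of 5 genes for folding in the endoplasmic reticulum, where secreted proteins mature, 3 fell, against 16.8% of all genes. bipA, the main chaperone there, went from 628, 706 and 635 FPKM to 275, 256 and 297 FPKM (-1.25 ± 0.16, adjusted p = 3.7e-06), with no overlap. Calnexin, clxA (-0.72 ± 0.16), and the disulfide isomerase gene pdiA (-0.69 ± 0.11) fell too. The sensor gene ireA (-0.20 ± 0.13) and hacA, the transcription factor of the unfolded protein response (-0.54 ± 0.27), were not called but were called lower after scaling. Of 6 heat shock chaperone genes limma called 0, also at an unadjusted p under 0.05 and by voom on whole reads, though 1 was called without replicate 1 at 8 h. The gene hsp70 was at 1758 ± 396 and 1852 ± 394 FPKM. In the respiratory chain 4 of 5 genes rose, against 31.4% of all genes. Among them were the ATP synthase gene atp4 (0.69 ± 0.13), the cytochrome oxidase assembly gene cox10 (0.68 ± 0.13) and the Rieske protein gene rip1 (0.53 ± 0.14). The remaining call, that of cox15, was lost in 4 alternatives, scaling among them. The gene sdh2 was not called (-0.11 ± 0.12).

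**Figure D3:**
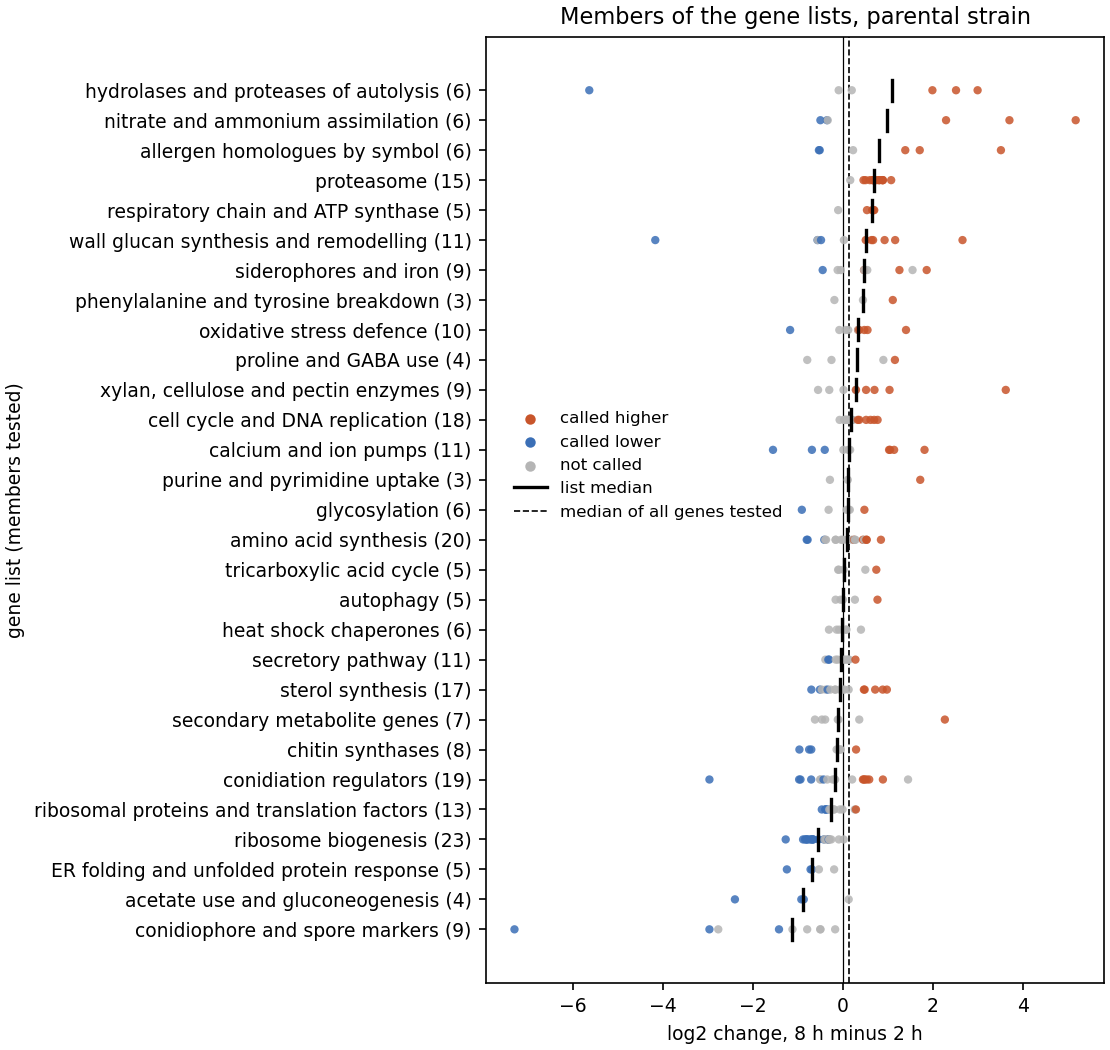
Log2 change, 8 h minus 2 h, of the tested members of each gene list (points; red called higher, blue called lower, grey not called). Black bars are list medians, from 1.09 (hydrolases and proteases of autolysis) to -1.12 (conidiophore and spore markers), and the dashed line is the median of all genes tested (0.13).

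Several lists held single genes that changed. Of 11 genes of ion pumps and uptake 4 rose and 3 fell, against 31.4% and 16.8% of all genes. The zinc transporter genes zrfC (1.81 ± 0.20), zrfA (1.14 ± 0.29) and zrfB (1.05 ± 0.12) all rose, zrfB from 23.4 ± 1.59 to 49.6 ± 6.93 FPKM. Of the calcium pump genes, pmcC rose (1.02 ± 0.30) while pmcB fell from 155 ± 30.6 to 52.1 ± 12.3 FPKM (-1.56 ± 0.18) and pmcA fell by 0.69 ± 0.18. Calcium pump genes thus moved both ways. The purine transporter gene azgA rose from 16.6 ± 2.15 to 56.8 ± 7.44 FPKM (1.72 ± 0.27), and the proline permease gene prnB by 1.15 ± 0.25 at under 5 FPKM. In oxidative stress defence 5 of 10 genes rose, among them the catalase gene cat1 (1.40 ± 0.35), and skn7, a response regulator, fell by 1.18 ± 0.19. The number that rose was 3 under scaling, without replicate 3 at 2 h and without replicate 2 at 8 h. Over all genes 31.4% rose and 16.8% fell.

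The remaining lists held few calls or calls in both directions. In sterol synthesis 5 of 17 genes rose, led by erg1, squalene epoxidase (0.97 ± 0.23), and 3 fell, led by hmg1, the reductase of the early pathway (-0.70 ± 0.11). The number that fell was 6 after scaling, 5 without replicate 1 at 2 h and 1 without replicate 3 at 2 h. In amino acid synthesis 5 of 20 rose, with argB of arginine synthesis at 0.84 ± 0.13, and 3 fell, with luA of leucine synthesis at -0.81 ± 0.17. The number that rose was 3 after scaling and without replicate 1 at 2 h. In the list for the cell cycle and DNA replication 6 of 18 rose, and after scaling 4 rose and 1 fell. The largest rises were those of nudC (0.77 ± 0.24), cdc31 (0.69 ± 0.12) and nudI (0.61 ± 0.12). Members entered this list by gene symbol, so nudC and nudI need not be genes of the cell cycle itself. The nudC call was lost without replicate 2 at 8 h (adjusted p = 0.059) and without replicate 3 at 2 h (adjusted p = 0.054). These shares stand against 31.4% of all genes called higher and 16.8% called lower, and no difference from all genes was tested. The medians of these 3 lists were -0.07, 0.10 and 0.18, and after scaling -0.22, -0.05 and 0.04. One gene each was called higher among 5 of the citric acid cycle (cit1, 0.74 ± 0.17), 5 of autophagy (atg1, 0.77 ± 0.20), 4 of proline and GABA use (prnB) and 7 of secondary metabolism (tpcA). Of 3 listed purine and pyrimidine genes the transporter gene azgA was called higher, and hxA and pyrG were not called. Of 3 genes of phenylalanine and tyrosine breakdown fahA was called higher (1.11 ± 0.42), a call lost in 8 alternatives, among them scaling and leaving out replicate 2 at 8 h. In the secretory pathway 1 of 11 genes was called higher (sar1, lost in 8 alternatives) and 2 lower. After scaling the counts were 0 and 4, and without replicate 2 at 2 h they were 0 and 0. In glycosylation the mannosyltransferase gene pmt2 fell (-0.92 ± 0.16), and the 1 higher call among the 6 genes, alg10, was lost in 5 alternatives.

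Siderophore genes, which serve iron uptake, showed the library that stood apart. Of 9 genes 3 rose and 1 fell, against 31.4% and 16.8% of all genes. None was called lower without replicate 3 of either time. sidI was at 0.28, 0.19 and 0.39 FPKM at 2 h and at 1.77, 15.2 and 1.26 FPKM at 8 h, and its call ended without replicate 2 at 8 h (adjusted p = 0.18). The transporter gene mirB, at 8.26, 42.6 and 4.06 FPKM at 8 h, was not called (1.55 ± 0.67). sidJ rose by 1.25 ± 0.30, also without that library (adjusted p at most 0.016 with any library left out). In each of these 3 genes replicate 2 was the highest of the 8 h libraries.

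Genes that the reference table gives no symbol held many of the largest changes, and they are given by identifier only. AN3310 was at 8.52, 6.09 and 4.36 FPKM at 2 h and at 507, 345 and 671 FPKM at 8 h (6.11 ± 0.44, adjusted p = 3.6e-09), the largest rise among the genes named by size. AN12004 rose from 16.9, 5.15 and 3.52 FPKM to 301, 288 and 237 FPKM (5.12 ± 0.61), and AN1567 from 1.30 ± 0.51 to 84.4 ± 5.76 FPKM (5.23 ± 0.78). AN2573, next to dppV in its number, and AN11979 were at most at 0.52 and 0.22 FPKM in the 2 h libraries and at 39.4 ± 10.3 and 35.6 ± 5.75 FPKM at 8 h. AN7894 and AN11702 rested in size on replicate 2 at 8 h. AN7894 was at 99.3, 576 and 90.0 FPKM at 8 h and AN11702 at 66.4, 1175 and 101 FPKM, and without that library their changes were 4.36 and 3.69 in place of 5.23 and 4.96.

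Among unnamed genes that fell, AN6401 stood out by its level. It was at 4922, 5518 and 5593 FPKM at 2 h and at 145, 184 and 107 FPKM at 8 h (-5.22 ± 0.34, adjusted p = 1.1e-09). AN1941 fell from 914, 1044 and 1171 FPKM to between 17.3 and 21.5 FPKM (-5.64 ± 0.25, adjusted p = 2.0e-11). Neither gene overlapped between the times, a condition for genes named by size. AN3388 (-5.31 ± 0.64), AN5664 (-5.48 ± 0.39), AN6476 (-5.62 ± 0.82) and AN0940 (-4.67 ± 0.96) completed the set of 8 with ivoB and mep20. AN0940, next to agdC in its number, was at 54.9, 37.2 and 205 FPKM at 2 h. Of the named genes with the remaining largest changes, aah1, named for the adenine deaminase of S. cerevisiae, rose from 6.61 ± 2.68 to 73.9 ± 24.6 FPKM (3.31 ± 0.23), and gta1 (-2.07 ± 0.33) and fmaF (-1.81 ± 0.21) fell.

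Some of the changed genes lay side by side. Runs of at least 4 neighbouring tested genes, all called and all changed at least 2-fold in the same direction, were sought after the data were seen, in the gene order of the RefSeq assembly ASM1142v1. Among 8663 tested genes with a place there were 17 runs of higher genes, with 80 genes, and 2 runs of lower genes, with 9 genes. Without replicate 2 at 8 h there were 12 and 2 runs, and with a pseudocount of 5 there were 6 and 0, since low genes then change less.

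The run from AN7909 to AN7914 held 5 genes that rose by 3.12 to 4.77. AN7914 was at 152, 39.6 and 52.9 FPKM at 2 h and at 1664, 2144 and 1904 FPKM at 8 h. The 8 genes from AN7897 to AN7903 rose by 1.99 to 4.63, and replicate 2 at 8 h was the highest library in each of them. AN7902 was at 15.3, 88.2 and 11.9 FPKM at 8 h and AN11584 at 46.8, 296 and 41.2 FPKM. All 8 calls held without that library, at smaller changes such as 3.21 in place of 4.08 for AN7902. The run with ags1 reached from AN3311 to AN3307 and included AN3310. In the run that begins with tpcA, named for a gene of the trypacidin cluster of A. fumigatus, tpcA was at 3.91, 12.6 and 1.58 FPKM at 8 h, with 2.26 ± 0.44 as its change and 1.62 without replicate 2, and AN6445 was no longer called (adjusted p = 0.067).

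The 2 runs of lower genes were AN2545 to AN10325, with 5 genes and a median of -1.71, and AN4376 to AN4373, with 4 genes and a median of -1.62. AN4376 fell from 3291, 4138 and 4028 FPKM to 845, 1272 and 1044 FPKM (-1.87 ± 0.16). AN2547 fell from 37.7, 51.0 and 34.6 FPKM to 6.16, 11.0 and 8.44 FPKM (-2.16 ± 0.26). Both were lower at 8 h in every library.

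**Figure D4:**
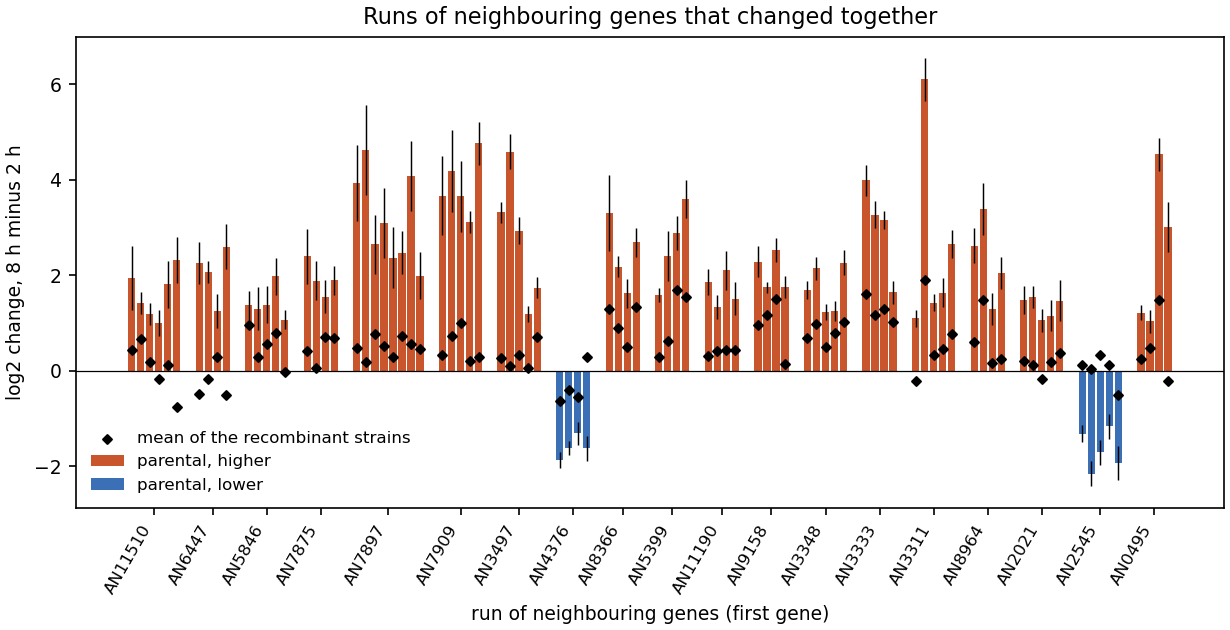
Log2 change, 8 h minus 2 h, of the genes in each run of neighbouring changed genes (bars, parental strain, ± SE; in genome order within a run, labelled by the first gene) and the mean change of the 3 recombinant strains (diamonds). In the run from AN2545 the parental bars lie between -2.16 and -1.17, and the median of the diamonds is 0.12.

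The time change of the parental strain was then set against the mean time change of AbfA, BglC and 1542 in the same fit. The difference was called in 1770 of 9201 genes (19.2%), 1218 with a higher value in the parental strain (13.2%) and 552 with a lower one (6%). The count fell to 1116 without replicate 2 at 2 h. After scaling there were 1884 calls, 955 higher and 929 lower. This comparison uses the same 6 parental libraries as the time change itself, so a parental library that deviates moves both.

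Among proteasome genes 12 of 15 differences were called, all with the larger rise in the parental strain, against 13.2% of all genes called higher. The change of rpn8 was 1.07 in the parental strain and 0.35, 0.62 and 0.40 in AbfA, BglC and 1542. In ribosome assembly 2 of 23 differences were called, both lower in the parental strain, against 6% of all genes called lower. For the rest a difference was not shown, which does not mean that the strains changed alike. bipA, clxA and pdiA fell more in the parental strain, with differences from -0.80 (bipA) to -0.58 (pdiA). So did acuF, facB and fbp1, with differences from -1.22 (acuF) to -0.58 (fbp1).

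The rise of all 3 nitrate genes was larger in the parental strain. The change of crnA was 2.00, 2.36 and 0.03 in AbfA, BglC and 1542, against 5.17 in the parental strain (difference 3.71 ± 1.02, adjusted p = 0.015). That of niaD was 1.57, 1.63 and 0.24 against 3.70 (difference 2.55 ± 0.64, adjusted p = 0.0086). The crnA call was lost without replicate 2 at 2 h (adjusted p = 0.060).

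Differences in the other direction were largest in ivoB and mep20, and ags2 and agdC were also among the genes with a called difference. ivoB changed by -0.68, -2.26 and -0.34 in AbfA, BglC and 1542 (difference -6.21 ± 0.49, adjusted p = 1.0e-07), ags2 by -0.25, -0.90 and 0.01 (difference -3.80 ± 0.24), and mep20 by 0.92, -1.45 and -0.31 (difference -5.36 ± 0.63). agdC changed by -0.26, -0.55 and 0.02 against -2.90 (difference -2.63 ± 0.23). Among genes that rose, gmdB changed by -0.34, -0.05 and -0.59 against 2.99 (difference 3.32 ± 0.27). Differences were not called for AN6476 (-1.38 ± 0.94), dppV (0.62 ± 0.40) or fdh (-0.67 ± 0.35), whose values had the same sign in all 4 strains.

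**Figure D5:**
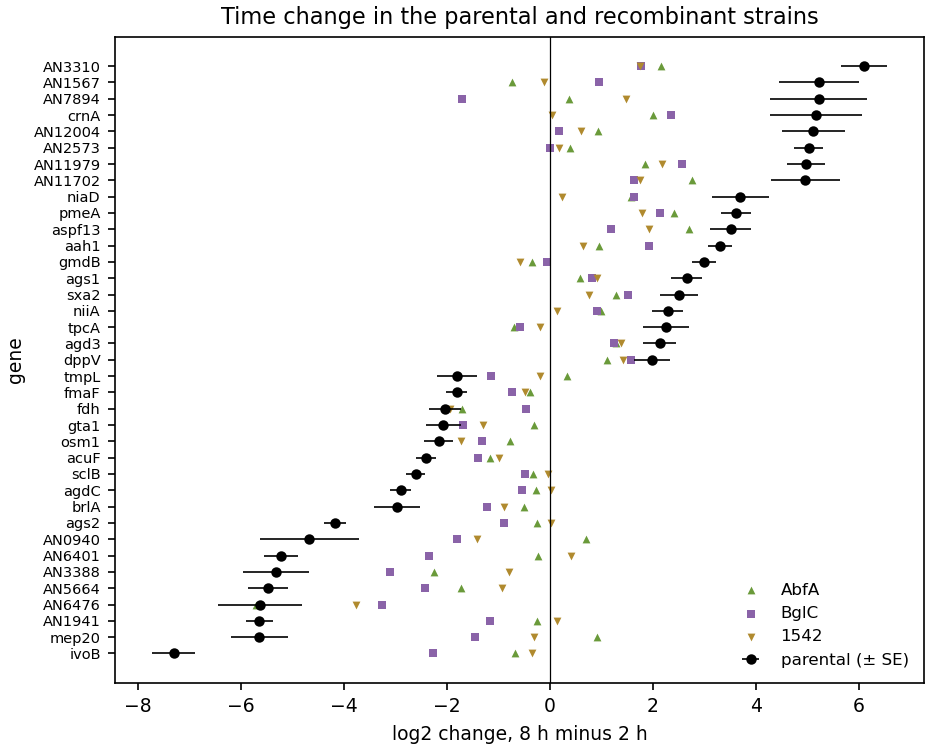
Log2 change, 8 h minus 2 h, of the genes named for the size of their change or difference, in the parental strain (black, ± SE) and in the recombinant strains AbfA, BglC and 1542 (coloured marks, means of 3 against 3 libraries). For ivoB the parental value is -7.30 and the others lie between -2.26 and -0.34.

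Of the genes of the strain's markers, pyrG and pyroA changed little. pyrG was at 64.1 ± 2.59 and 69.2 ± 7.04 FPKM and was not called. pyroA was at 98.6 ± 7.92 and 80.3 ± 3.40 FPKM (-0.29 ± 0.12, adjusted p = 0.044), a call that was lost in 7 of the alternatives. No gene carried the symbol wA in the reference table, which does not mean that wA was not measured. The 5 most abundant genes at 2 h were AN11787, AN11705, AN0833, AN0677 and AN2301, with means from 27930.0 down to 11764 FPKM, and AN11705 fell from 21309 ± 664 to 12283 ± 4299 FPKM (-0.85 ± 0.19). At 8 h AN1160 and AN11489 stood among the first 5 in place of AN0677 and AN2301. AN1160 rose from 6811 ± 819 to 13145 ± 2068 FPKM (0.94 ± 0.25), and AN11489 was not called (0.11 ± 0.26).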

How the data were processed

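RNA of frozen mycelium was extracted with a Zymo kit and made into TruSeq Stranded mRNA libraries, per the labels' protocols. The authors deposited 1 table of FPKM values, 1 column per library. Tools listed in the submitters' processing notes, without their roles, are HTSeq 0.6.0, DESeq2, SAMtools 0.1.18, bcl2fastq 1.8.4 and FastQC. Not given in the sources used here are the aligner, the genome build, the gene lengths and the use of strand, so reads of overlapping, antisense or near-identical genes may not be separated. Within a library the deposited FPKM values were whole multiples of a step per gene, which gave whole reads for 10631 of 10631 genes (100.0%, tolerance 0.002 of a read). A gene with reads in only 1 library or in none has no step to check, and counted as recovered by definition.

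limma 3.58.1 in R 4.3.3 was fitted to log2(FPKM + 1) with 8 group means over all 24 libraries, which share 1 spread per gene, and with a trend of the variance. This scale understates changes of low genes. Calls were made two-sided at an adjusted p (Benjamini-Hochberg) under 0.05. The second test set the parental time change against the mean change of the recombinant strains. The procedure was also run on simulated counts, with far fewer changed genes than were called here and the same spread setting for all genes. That run did not cover a shift of the median gene, so it does not check the effect of scaling. The p-values measure the spread between libraries of a group.

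Gene symbols are those of RefSeq for assembly ASM1142v1, where 9941 of the genes were found and 779 had a symbol, 770 of them tested; 390 of these (50.6%) were called. The genes, the gene lists and the comparison were chosen with earlier results of these data known. Named are the 8 genes with the largest called rise and the 8 with the largest fall, 12 and 12 with a symbol, up to 4 per list (any member of a list of at most 12), the 4 and 4 largest differences from the recombinant strains with a symbol, the 5 most abundant genes at each time and the marker genes of the strain. The genes named by size were picked only among called genes whose libraries did not overlap between the times. Lists with under 3 members tested are not described as lists. The protein kinase genes that a name pattern had put in the secondary metabolism list were left out. Listed genes that did not carry the listed symbol in the reference table were also left out, whether measured or not. The lists are therefore parts of their pathways. The alternatives were other pseudocounts, filters, scaling, models and each parental library left out.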

Additional observations from a re-analysis of the deposited data

Results flagged for a closer look

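The time change of the parental strain differed from the mean time change of the recombinant strains in 1770 genes (19.2%) by limma's test of the difference itself. The genes below were chosen for a large parental change or a large difference in the same libraries, so how many of them were called says nothing more. Values are given as parental minus recombinant mean on the log2 scale.

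A lower value in the parental strain was found for ivoB (-6.21), mep20 (-5.36), AN1941 (-5.21), AN6401 (-4.50), AN0940 (-3.83), ags2 (-3.80), AN5664 (-3.78), AN3388 (-3.27), agdC (-2.63), sclB (-2.32), brlA (-2.10), tmpL (-1.47), fmaF (-1.27) and acuF (-1.22). These genes fell in the parental strain.

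A higher value was found for AN1567 (5.20), AN7894 (5.18), AN2573 (4.85), AN12004 (4.54), AN3310 (4.21), crnA (3.71), gmdB (3.32), AN11702 (2.91), AN11979 (2.77), tpcA (2.75), niaD (2.55), aah1 (2.14), ags1 (1.88), niiA (1.61), aspf13 (1.57), pmeA (1.50) and sxa2 (1.32). These genes rose in the parental strain. For AN7894, AN11702 and tpcA replicate 2 at 8 h was far above the other 8 h libraries, and its part in the difference was not tested beyond leaving it out.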

How the results depend on the processing

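The parental count of 4440 stayed within 1.5 times of itself under all alternatives run: 3760 to 4159 when a library was left out, and 4108 (FPKM of at least 5) to 4515 (no filter) otherwise. The count of 1770 differences ran from 1116 to 1820 when a library was left out, with 1116 without replicate 2 at 2 h, and the cause was not tested. No called value of a gene picked by the naming rule changed sign. Over pairs of such a gene and an alternative, the time change lost its call in 114, gained one in 47, changed sign without being called in 70 and kept its side in 2833. For genes named by the size of their change or difference, the difference lost its call in 15, gained one in 5 and kept its side in 497. Genes named outside the rule, such as those named only as members of runs, are not in these tallies. Among genes of the lists, calls were lost most often for chsB (10 alternatives), cpcA and rps23 (9 each). Over pairs of a list count and an alternative, 95 moved by over 1.5 times and 775 did not. The runs of neighbouring genes, defined after seeing the data, numbered 6 higher and 0 lower with a pseudocount of 5, 10 and 2 with FPKM of at least 5, and 24 and 3 by voom on whole reads.

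Replicate numbers are shared between groups. The deviations of same-numbered parental libraries had correlations of -0.16, -0.18 and 0.15, and those of differently numbered ones ran from -0.26 to 0.34. With 3 libraries per time these values depend on each other, so they showed no pairing by number and cannot exclude it. With the replicate block 4442 genes were called, and 1666 differences. edgeR on whole reads was not run, since the deposited unit is FPKM, and a fit of the 6 parental libraries alone gives no difference from the recombinant strains. Depth limits low genes: 1 read on a gene of 1 kb was worth 0.0412 to 0.0715 FPKM in the parental libraries, and this covers counting error only.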
